A study of Mus musculus with 4 samples.

Results

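Imprinted gene domains were taken as the 10 genes H19, Igf2, Kcnq1, Cdkn1c, Igf2r, Peg3, Meg3, Dlk1, Snrpn and Ube3a, with the 50 kb bins of the population-based replication timing profile that overlap their gene bodies and the bins within 1 Mb on each side. The genes lie in 5 regions of the mm10 assembly, on distal chromosome 7 (H19, Igf2, Kcnq1 and Cdkn1c), proximal chromosome 7 (Peg3), central chromosome 7 (Ube3a and Snrpn), chromosome 12 (Dlk1 and Meg3) and chromosome 17 (Igf2r). Their bodies cover 24 bins. With the flanks there were 244 bins with a value, out of 51153 on the autosomes and X. The bins were found from gene names and the GENCODE vM21 annotation, and the list of genes was drawn up with earlier results of these data known.

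The profile came from diploid F121-9 mESCs, a hybrid cas/129 line grown in N2B27 medium with 2i and LIF. Nascent DNA was labeled with BrdU, the cells were sorted into an early and a late S-phase fraction, and there were 2 libraries of each fraction, 4 in all. Each bin has 1 deposited value, here called RT, which combines all 4 libraries. It is a log2 ratio of early to late reads, so RT above 0 means more early than late reads. The value also combines the maternal and the paternal chromosome, so differences between the alleles cannot be seen in it.

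No value per replicate was analysed, so no difference below carries a test, and the number of reads behind a bin is unknown. The only error available was the noise from bin to bin, an SD of 0.16 log2 for 1 bin and 0.22 for the difference of 2 bins, taken from 7337 bins in flat stretches of the profile. It does not cover differences between cultures, and it would be too small if the deposited values had been smoothed, which the sources used here do not state for this profile. All 4 libraries are of the same line and medium. Culture with 2i is known to lower DNA methylation in mESCs, and whether the imprints were intact in these cells was not measured here.

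Imprinted genes are expressed from the chromosome of only one parent. At the classical clusters the choice is set by DNA methylation at an imprinting control region. This methylation is laid down in the egg or the sperm and kept after fertilization. One control region often governs a cluster of genes, in part through a long noncoding RNA. Many imprinted genes act on fetal and placental growth. In cytological studies imprinted regions have been known as places where the homologs replicate at different times.

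The H19 control region is the best known of these switches. On the maternal chromosome it is unmethylated and bound by CTCF, a zinc finger protein that insulates Igf2 from enhancers beyond H19. The pattern CCGCNNGGNGGCAG, which holds the core of the CTCF sites known there, was searched on both strands in the 5 kb upstream of the H19 5′ end, in the intergenic stretch between H19 and Igf2. It had 4 matches, all on the strand of the gene. They are shown because they place the switch in the profile: all of them fall in the bin that also holds H19. Capitals mark the pattern, and the sequences are those of the minus strand of mm10, 5′ to 3′, from chr7:142580301-142580330, chr7:142580756-142580785, chr7:142581782-142581811 and chr7:142582026-142582055.
H19 upstream site 1: agacgatgCCGCGTGGTGGCAGtacaatac
H19 upstream site 2: ggatgctaCCGCGCGGTGGCAGcatactcc
H19 upstream site 3: cagggttgCCGCACGGCGGCAGtgaagtct
H19 upstream site 4: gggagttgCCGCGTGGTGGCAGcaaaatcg
Their distances from the H19 5′ end were 2172, 2627, 3653 and 3897 bases. Over the autosomes and X, 527 of 511892 windows of 5 kb (0.103%) held at least 1 match and 2 held at least 4. Because the pattern was taken from knowledge of this locus, the matches fix a position and are not a result.

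Promoter sequences from 250 bases before to 50 bases after a start were available from RefSeq (mm10) for 7 of the 10 genes, in 14 entries. Those of Igf2r, Ube3a, Meg3, Peg3 and Snrpn are shown because promoters alike in their number of CpG dinucleotides, the letters that carry imprinted methylation, lay in bins with very different RT. Every CG is in capitals. They come from chr17:12769657-12769956 (minus strand), chr7:59228500-59228799 (plus), chr12:109540746-109541045 (plus), chr7:6730370-6730669 (minus) and chr7:60005150-60005449 (minus), in that order.
Igf2r: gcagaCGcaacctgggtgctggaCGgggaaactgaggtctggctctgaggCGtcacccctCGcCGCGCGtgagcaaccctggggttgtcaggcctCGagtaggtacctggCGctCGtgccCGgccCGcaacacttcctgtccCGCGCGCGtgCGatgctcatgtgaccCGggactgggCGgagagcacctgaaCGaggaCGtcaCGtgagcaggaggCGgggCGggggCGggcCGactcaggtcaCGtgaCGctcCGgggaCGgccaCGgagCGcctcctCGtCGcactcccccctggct
Ube3a: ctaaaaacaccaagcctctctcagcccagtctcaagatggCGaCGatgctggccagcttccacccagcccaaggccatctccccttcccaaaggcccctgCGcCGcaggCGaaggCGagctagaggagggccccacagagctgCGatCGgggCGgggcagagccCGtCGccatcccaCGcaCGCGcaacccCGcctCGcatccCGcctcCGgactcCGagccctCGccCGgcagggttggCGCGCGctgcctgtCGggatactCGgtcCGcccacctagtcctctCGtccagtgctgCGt
Meg3: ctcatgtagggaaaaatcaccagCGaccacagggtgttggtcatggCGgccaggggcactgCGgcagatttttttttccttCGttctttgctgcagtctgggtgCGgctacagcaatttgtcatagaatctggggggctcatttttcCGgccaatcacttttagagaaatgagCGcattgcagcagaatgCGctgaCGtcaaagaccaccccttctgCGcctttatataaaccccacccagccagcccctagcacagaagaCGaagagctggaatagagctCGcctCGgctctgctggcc
Peg3: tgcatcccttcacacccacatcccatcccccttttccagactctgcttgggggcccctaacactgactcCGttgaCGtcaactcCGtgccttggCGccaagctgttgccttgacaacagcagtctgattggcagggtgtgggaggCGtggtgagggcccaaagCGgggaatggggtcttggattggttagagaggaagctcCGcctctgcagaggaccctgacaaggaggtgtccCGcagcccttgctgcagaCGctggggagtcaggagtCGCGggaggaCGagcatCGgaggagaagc
Snrpn: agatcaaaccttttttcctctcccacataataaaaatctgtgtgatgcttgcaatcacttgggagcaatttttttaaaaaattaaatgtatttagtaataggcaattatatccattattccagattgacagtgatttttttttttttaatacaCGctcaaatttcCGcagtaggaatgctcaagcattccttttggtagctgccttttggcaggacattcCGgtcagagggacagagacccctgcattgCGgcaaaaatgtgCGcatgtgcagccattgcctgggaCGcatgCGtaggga
The Igf2r promoter has 34 CpGs and that of Ube3a 29, against a median of 7 over all 32851 promoter entries, and their start sites lay in bins with RT 2.27 and -2.52. The promoters of Meg3 and Peg3 have 13 CpGs each, and their bins had RT 2.33 and -0.08. The Snrpn entry, the one of its 4 with the most CpGs, has 7 and lay in a bin with RT -2.03. The promoters were picked for this contrast, so it is a description of these entries. The letters TGCCGC, the core bound by ZFP57, a protein that guards imprinted methylation, occur on either strand in 3 of the 14 entries (1 each of Igf2, Meg3 and Snrpn) and in 11.6% of all entries.

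The 10 genes fell into an early, a middle and a late group. Mean RT over the gene body was above 0 in 5 genes (Cdkn1c, Kcnq1, Meg3, Dlk1 and Igf2r) and below 0 in 5, while 72.5% of all 21679 protein-coding genes with a value were above 0. The genes share regions and chromosomes, and 2 of them (H19 and Meg3) are noncoding, so this is a description of the list. Within 0.5 of RT 0 lay 3 of the 10 (Peg3, Igf2 and H19), against 7.82% of protein-coding genes. The limit of 0.5 was chosen after the values were seen. The median RT of the 10 genes was 0.77 and that of protein-coding genes 2.23.

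**Figure D1:**
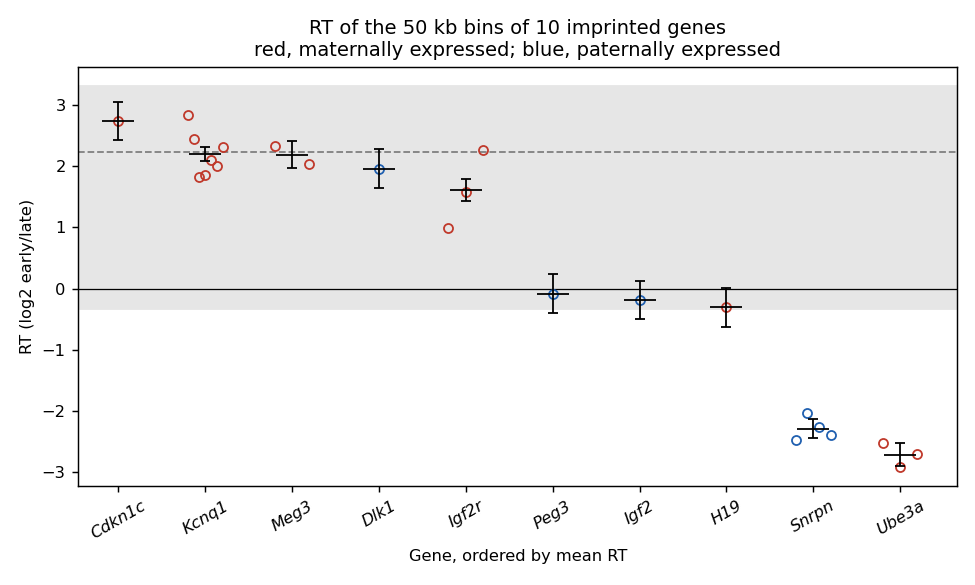
RT (log2 early over late) of every 50 kb bin of the 10 genes, ordered by mean RT. Circles are bins in the order along the chromosome, black dashes the gene means with bars of 2 noise SDs, the shaded band the middle 50% of protein-coding genes and the dashed line their median. Cdkn1c, Kcnq1, Meg3, Dlk1 and Igf2r lie above 0, Peg3, Igf2 and H19 lie close to 0, and Snrpn and Ube3a lie below -2.

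The highest mean RT was that of Cdkn1c, at 2.73, and the lowest that of Ube3a, at -2.71. In the order Cdkn1c, Kcnq1, Meg3, Dlk1, Igf2r, Peg3, Igf2, H19, Snrpn and Ube3a, the neighboring pairs Kcnq1 and Meg3, Meg3 and Dlk1, Dlk1 and Igf2r, Peg3 and Igf2, and Igf2 and H19 differed by no more than 2 noise SDs. The largest steps were from H19 down to Snrpn, by 1.98, and from Igf2r down to Peg3, by 1.69. Even Cdkn1c was not at the early end of the genome, since 58.5% of protein-coding genes had a lower mean RT. Of the other 9 genes, each had at most 49.5% of protein-coding genes below it.

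**Figure D2:**
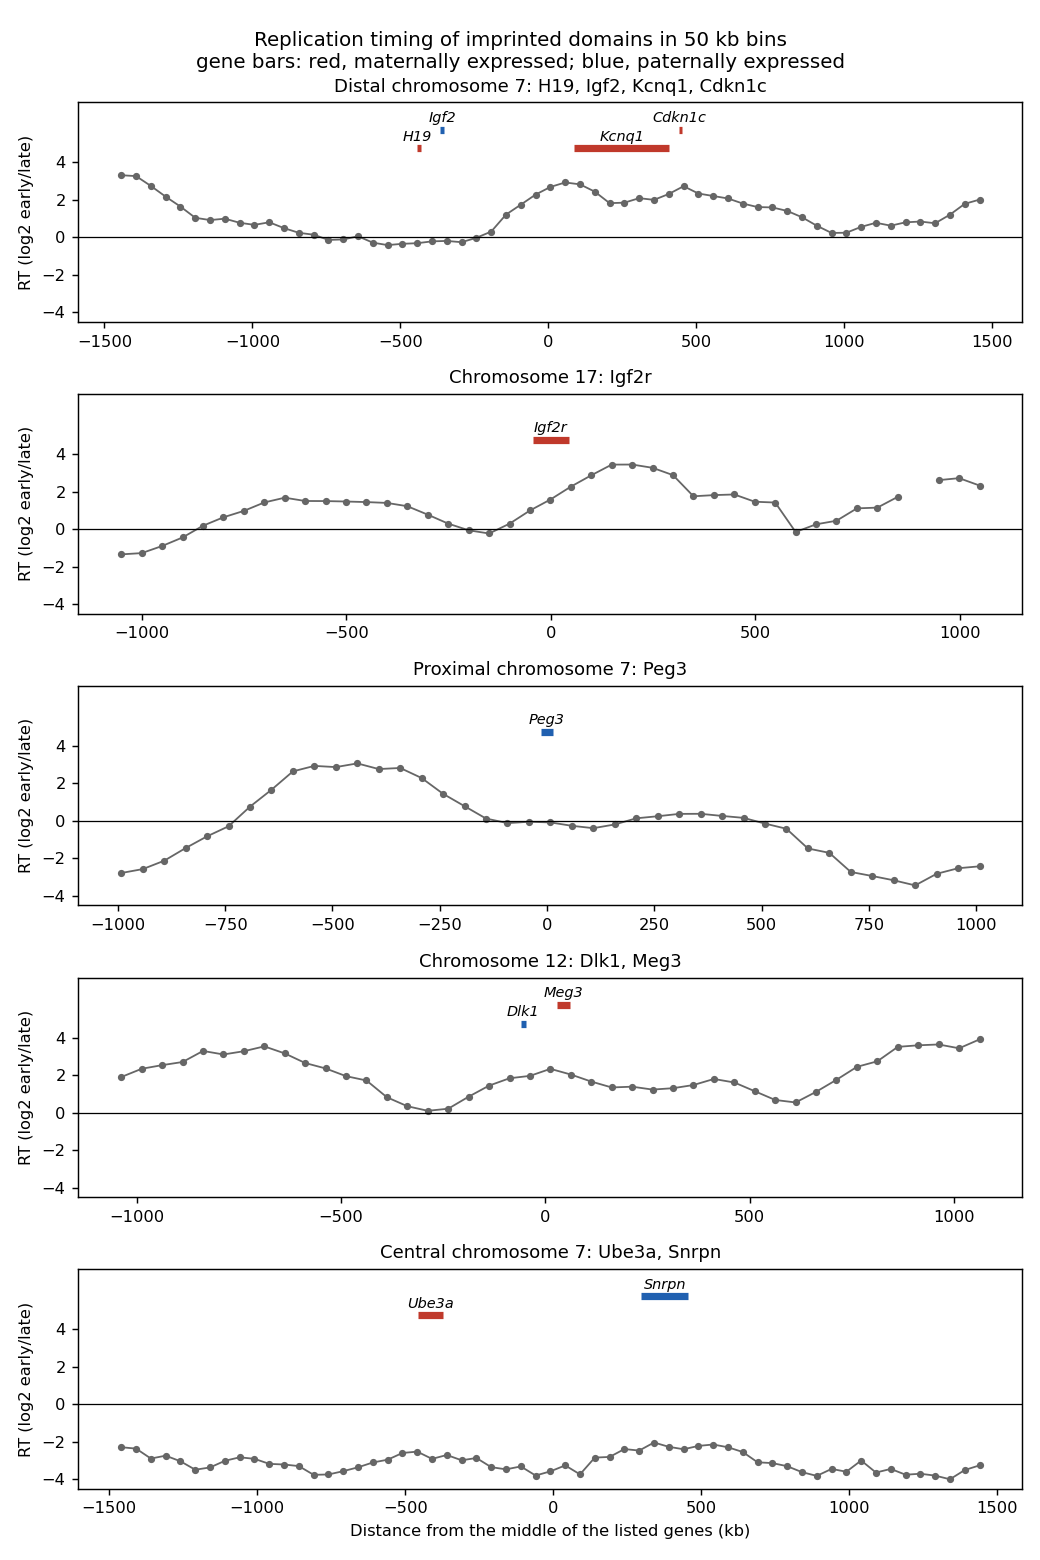
RT of each 50 kb bin (points) in the 5 regions, against the distance in kb from the middle of the listed genes. Bars above the profile are the gene bodies, red for maternal and blue for paternal expression as labeled in the gene list. H19 and Igf2 lie on a flat stretch near 0 beside the early Kcnq1 and Cdkn1c, Igf2r lies on a slope, Peg3 on a step near 0, Dlk1 and Meg3 on a local peak, and Ube3a and Snrpn in a region that is late throughout.

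Distal chromosome 7 held an early and a middle part side by side. H19, a maternally expressed noncoding RNA that is abundant in the embryo (ENSMUSG00000000031.16, chr7:142575529-142578143, minus strand), lies in 1 bin with RT -0.31. Igf2, the paternally expressed fetal growth factor (ENSMUSG00000048583.16, chr7:142650766-142666816, minus strand), lies in 1 bin with RT -0.19. These neighbors are expressed from opposite parental chromosomes, and their RT differed by -0.12 (H19 minus Igf2), less than the noise SD of the difference, 0.22.

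Kcnq1, which encodes a voltage-gated potassium channel of heart and inner ear (ENSMUSG00000009545.14, chr7:143106362-143427042, plus strand), spans 7 bins with a mean RT of 2.19. From its 5′ to its 3′ end the bins had RT 2.83, 2.44, 1.83, 1.85, 2.09, 2.00 and 2.32. RT was thus highest at the 5′ end, lowest in the bins with 1.83 and 1.85, and higher again towards Cdkn1c. The dip had a lowest RT of 1.83 and a depth of 0.90. It lay in the 2 bins of Kcnq1ot1 (mean RT 1.84), the paternally expressed antisense RNA that starts inside Kcnq1 and silences genes around it. The bin with 1.83 has 35.6% GC and 43.5% of its bases in repeats. The other bins of Kcnq1 have 45.7% to 50.5% GC and 11.6% to 16.0% in repeats. Whether the dip is linked to Kcnq1ot1 or to base content was not tested. Cdkn1c, a maternally expressed inhibitor of cyclin-dependent kinases (ENSMUSG00000037664.13, chr7:143458339-143461050, minus strand), lies in 1 bin with RT 2.73, the top of a local peak that it shares with the transporter gene Slc22a18.

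The change from the middle to the early part came between Igf2 and Kcnq1. RT crossed 0 at position 142777705 on chromosome 7, 110.9 kb beyond Igf2, in an intergenic stretch, with Ins2, an insulin gene, as the closest protein-coding gene. Ins2 had a mean RT of -0.22 and Th, which encodes tyrosine hydroxylase, had 1.48. Further on, RT reached 2.28 at Ascl2, a transcription factor of the trophoblast, 2.69 at Tspan32 and 2.93 in the bin that holds Cd81, Tssc4 and Trpm5. From H19 to that bin RT rose by more than 3 log2 units within the imprinted cluster.

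In the whole distal chromosome 7 region, from 141550001 to 144500000, 49 of 59 bins had RT above 0. Over all bins of the genome the share is 40.9%. Of its 59 protein-coding genes 46 were early, against 72.5% of all protein-coding genes. The highest mean RT was 3.29 at Ap2a2, which encodes an adaptor subunit of clathrin coats, and the lowest -0.41 at Lsp1, a leukocyte actin-binding protein gene close to H19. Beyond Cdkn1c, RT was 2.34 at Phlda2, which restrains placental growth, and 1.68 at Osbpl5, and it then fell to 0.24 in the bin from 143950001 without crossing 0. On the other side of H19, RT crossed 0 at 3 more positions, where the nearest protein-coding genes were Gm2431, Ifitm10 and Ctsd, the gene of a lysosomal protease, with mean RT -0.13, -0.02 and 0.06. These means are within the noise SD of 0, so the positions of the crossings are uncertain. Around them RT fell from 0.81 in the bin from 142050001 to -0.13 in the bin from 142250001. All bins from 142400001 to 142800000 were below 0, with a mean of -0.25.

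Peg3 lay at almost exactly RT 0. Peg3, a paternally expressed zinc finger gene with roles in growth and maternal care (ENSMUSG00000002265.16, chr7:6703892-6730431, minus strand), lies in 1 bin with RT -0.08. Its neighbors in the cluster also lay within 0.5 of 0. The maternally expressed Zim1 had -0.05, the paternally expressed Usp29, which starts next to Peg3 and runs the other way, had -0.09, and Zim3 and Zfp264 share a bin with 0.25. Zim1 minus Peg3 was 0.04, against a noise SD of 0.22.

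The surroundings of Peg3 were not in the middle. Within its window, from 5700001 to 7750000, RT ranged from 3.06 at Epp13 down to -3.44 at Vmn2r33, a vomeronasal receptor gene. Of the bins 18 of 41 were early, against 40.9% of all bins of the genome. Of the protein-coding genes 26 of 41 were early, against 72.5% of all protein-coding genes. Going along the chromosome, RT fell from 3.06 to 0.13 in the bin from 6550001 and crossed 0 at 6600681, 103.2 kb from Peg3. It then stayed near 0, with a shallow dip to -0.39 and a rise to 0.38, before it fell below -1 from 7300001 on. The genes nearest to the 4 crossings in this window were Vmn1r65 (mean RT 0.76), Olfr1350 (0.13), Usp29 and Zfp772 (-0.14). Peg3 thus lay on a step between an early and a late part.

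The flat stretches around H19 with Igf2 and around Peg3 were compared with all others of the genome. A run of bins with RT between -0.5 and 0.5 extended over 750 kb around H19 and Igf2, from 142100001 to 142850000 on chromosome 7, with a mean RT of -0.07 and an SD of 0.27 between its 15 bins. The run with Peg3 had the same length, from 6550001 to 7300000, with a mean of 0.00 and an SD of 0.26. The genome held 1894 such runs with a median length of 100 kb, and 5 were at least 750 kb long, both of these included, with the longest at 1000 kb. In all, 9.06% of bins of the genome lay between -0.5 and 0.5, and 45 of the 244 bins of the 5 regions (18.4%).

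**Figure D3:**
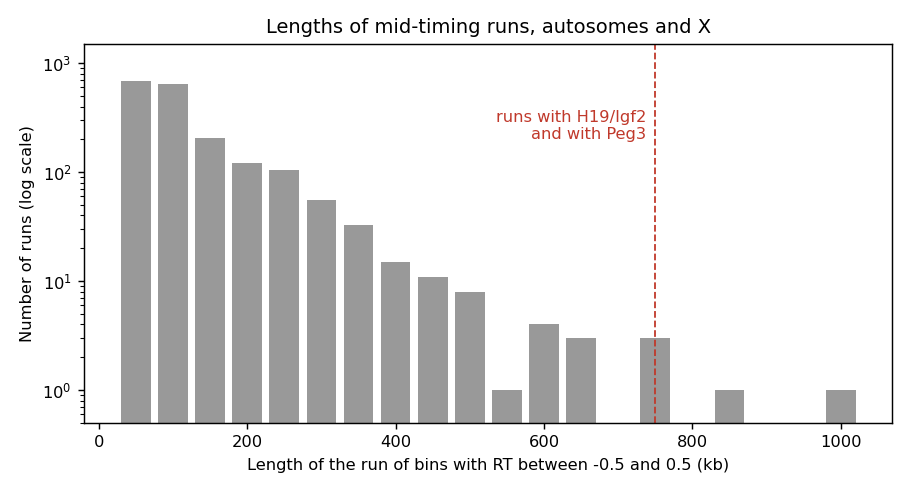
Number of runs (log scale) of consecutive bins with RT between -0.5 and 0.5, by their length in kb, on the autosomes and X. The dashed line marks the 750 kb of the run with H19 and Igf2 and of the run with Peg3, and 5 of 1894 runs, both of these included, are at least as long.

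The limit of 0.5 was set with the profile in view, and the lengths depended on it (each count below includes the run itself). With a limit of 0.4, the run of H19 and Igf2 was 350 kb long, with 38 of 1869 runs at least as long, and the run of Peg3 was 700 kb long, with 2 at least as long. With a limit of 0.3 the runs were 200 kb (Igf2 without H19) and 250 kb, with 128 and 64 of 1717 at least as long. With a limit of 1 they were 1000 kb and 800 kb, with 23 and 41 of 1931 at least as long. With a limit of 0.75 both were 750 kb long, with 18 of 1945 at least as long. An RT near 0 can arise from replication in the middle of S-phase or from a mixture of early and late copies, and these cannot be told apart in this profile.

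Igf2r lay on a slope. It encodes the receptor that takes up IGF2 and carries it to the lysosome (ENSMUSG00000023830.14, chr17:12682406-12769664, minus strand). Igf2r is labeled maternal in the gene list, and whether it is expressed from 1 allele in these cells was not measured. Its 3 bins, from the 3′ to the 5′ end, had RT 1.00, 1.58 and 2.27, a range of 1.27 within the gene. The mean was 1.61, and the slope at the 5′ end was 12.4 log2 per Mb, steeper than at 94.6% of all bins.

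The slope continued on both sides of Igf2r. Airn, a noncoding RNA labeled paternal, starts inside Igf2r and runs antisense to it. It had a mean RT of 2.54, 0.93 above Igf2r. The noise SD of the difference, which allows for the 2 bins they share, was 0.08. RT peaked at 3.44 in the bin from 12900001, with Mrpl18, a mitochondrial ribosomal protein gene, and its neighbors. On the other side RT crossed 0 at 12597074, in an intron of Slc22a2, 85.3 kb from Igf2r. The organic cation transporter genes Slc22a2 and Slc22a3, imprinted in the placenta and silenced there by Airn, had mean RT 0.03 and 0.34.

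Across the Igf2r region, from 11650001 to 13800000, 35 of 42 bins with a value and 24 of 25 protein-coding genes were early. Over the genome the shares are 40.9% of bins and 72.5% of protein-coding genes. On the far side of the peak RT dipped to -0.15 next to Tcp10c, which had a mean RT of 0.26. RT was above 0 without a break for only 700 kb around Igf2r.

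Dlk1 and Meg3 lay on a peak of their own. Dlk1, a paternally expressed transmembrane ligand related to Notch ligands (ENSMUSG00000040856.17, chr12:109452823-109463336, plus strand), lies in 1 bin with RT 1.96. Meg3, also called Gtl2, a maternally expressed noncoding RNA (ENSMUSG00000021268.17, chr12:109541001-109571726, plus strand), had RT 2.33 in its 5′ bin and 2.03 in the next. Meg3 minus Dlk1 was 0.22, with a noise SD of 0.19. The 5′ bin of Meg3 was the top of the peak, which had a prominence of 1.79. Before it RT dipped to 0.10, in the bin from 109200001. Beyond it came a shallow dip to 1.23, in the bin from 109750001, a lower peak of 1.79, in the bin from 109900001, and a dip to 0.54, in the bin from 110100001.

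The RNA genes downstream of Meg3 followed on the falling side of the peak. Rtl1, a paternally expressed gene derived from a retrotransposon, had 1.84, and the maternally expressed noncoding RNAs Rian and Mirg had 1.50 and 1.38. Between the start of Meg3 and the end of Mirg lie 57 miRNA hairpins of the RefSeq set, in 4 bins with RT from 1.34 to 2.03. Dio3, which encodes a deiodinase that inactivates thyroid hormone, lies past the dip to 0.54 and had RT 2.44, and Begain, before the dip to 0.10, had 1.83. All 43 bins of the window, from 108450001 to 110600000, and all 13 of its protein-coding genes had RT above 0. Over the genome the shares are 40.9% of bins and 72.5% of protein-coding genes. Ppp2r5c, a phosphatase subunit gene, was highest in the window at 3.64. The bins of Dlk1 and Meg3 belong to 5400 kb in which no bin was below 0.

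Snrpn and Ube3a were the late genes. Ube3a, the ubiquitin ligase gene of Angelman syndrome (ENSMUSG00000025326.12, chr7:59228750-59311536, plus strand), is expressed from the maternal chromosome in neurons and from both in most other cells. Its 3 bins had RT -2.52, -2.91 and -2.70 from the 5′ end. Snrpn, a paternally expressed splicing factor gene of the Prader-Willi region (ENSMUSG00000102252.5, chr7:59982495-60140219, minus strand), had RT -2.39, -2.26, -2.03 and -2.46 in its 4 bins from the 5′ end.

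Within the late region both genes held local peaks, but peaks were not limited to them. Lower peaks of -2.82 and -2.99, without a protein-coding gene, lay in the bins from 58600001 and 60700001. Past the 5′ end of Snrpn, RT was still -2.21, -2.14 and -2.29 in the bins from 60150001, 60200001 and 60250001. Snrpn peaked at -2.03, in the bin from 60000001 that also holds the start of Snurf, and stood out by 1.76. Ube3a peaked at -2.52 in its 5′ bin and stood out by 1.24. Between them RT fell to -3.79 in the bin from 59600001, inside Snhg14, the long paternally expressed RNA that runs antisense over Ube3a in neurons. Ube3a minus Snrpn was -0.42 over the gene bodies, with a noise SD of 0.12.

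None of the 59 bins of the window, from 58200001 to 61150000, had RT above 0, against 40.9% of all bins of the genome. Its 5 protein-coding genes ranged from -3.14 at Atp10a, a phospholipid flippase gene, to -2.25 at Gm38393. The late stretch without a bin above 0 extended over 7350 kb. The nearest crossing of RT 0 was 3482 kb from the 5′ end of Snrpn and 2978 kb from that of Ube3a. These distances were longer than for 97.0% and 95.8% of protein-coding genes. The paternally expressed genes of the same cluster that lie outside the window were also late, with RT -3.04 at Ndn, -2.91 at Magel2, -2.60 at Mkrn3 and -2.72 at Peg12.

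GC content was set beside RT because GC-rich bins are mostly early in this profile. The bin of H19 has 52.4% GC, more than 99.1% of bins, and only 8.44% of its bases are in repeats. Of the 736 bins within 1 GC point of it, 0.815% had a lower RT, and their quartiles were 2.67 and 3.68. The bin of Igf2, with 49.0% GC, had a higher RT than 5.15% of 2348 like bins. H19 and Igf2 were thus far later than bins of their GC content. This was not particular to them, since other GC-rich bins of the same flat stretch were alike. The bins from 142350001, 142450001 and 142500001, which hold neither gene, had 51.1%, 50.8% and 49.8% GC. Their RT was 0.06, -0.41 and -0.34, and the median of all bins at 50% GC was 3.13.

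The other genes stood closer to bins of like GC. Peg3, with 42.9% GC, had a higher RT than 43.5% of like bins, and Kcnq1, Cdkn1c, Igf2r, Meg3 and Dlk1 than 24.3% to 48.2%. On the late side the order turned. Snrpn and Ube3a, with 36.7% and 36.0% GC, had a higher RT than 84.8% and 81.4% of like bins, whose medians were -3.53 and -3.55.

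**Figure D4:**
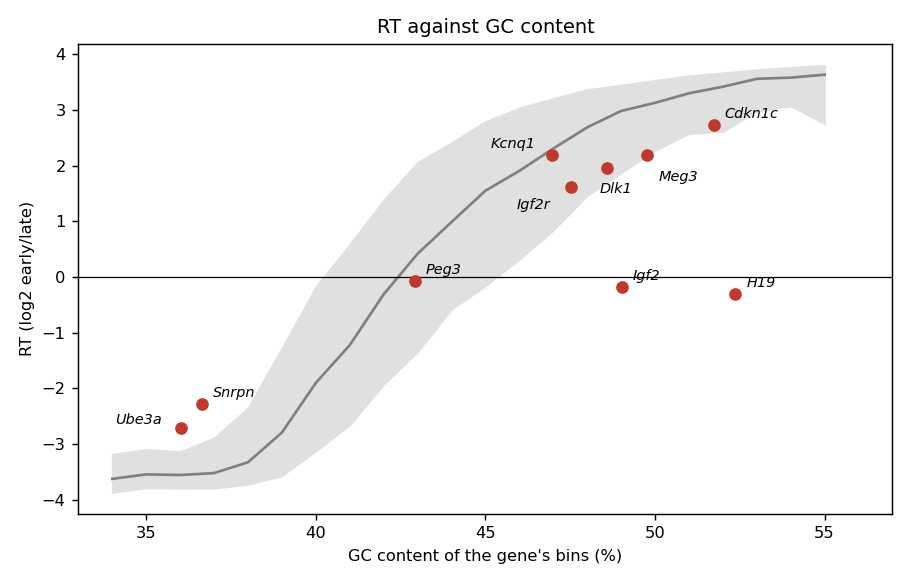
Mean RT of the 10 genes (red points) against the GC content of their bins in percent. The gray line and band are the median and the middle 50% of all bins at each GC percent with at least 20 bins. H19 and Igf2 lie far below the band at 52.4% and 49.0% GC, and Snrpn and Ube3a lie above it.

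The other genes were described from a list of 32 neighbors in the same 5 clusters and a list of 28 imprinted genes elsewhere. For 7 of the neighbors (Th, Trpm5, Nap1l4, Tnfrsf23, Zim3, Begain and Atp10a) the list gives no expressed allele, and 6 of these 7 had a mean RT above 0. Of all the neighbors 22 had a mean RT above 0, with a median of 1.49. By cluster these were 12 of 13 on distal chromosome 7, 3 of 3 near Igf2r, 2 of 4 near Peg3, 5 of 5 near Dlk1 and Meg3 and 0 of 7 near Snrpn and Ube3a. Of the genes elsewhere 24 of 28 were early, with a median of 1.31. For protein-coding genes as a whole the share was 72.5% and the median 2.23, so the list elsewhere had a higher share of early genes and a lower median.

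Among the genes elsewhere, the 4 with mean RT below 0 were Dcn, which encodes the proteoglycan decorin, at -3.48, the nucleosome assembly gene Nap1l5 at -2.20, the calcitonin receptor gene Calcr at -0.80 and the potassium channel gene Kcnk9 at -0.47. The highest were H13, which encodes a signal peptide peptidase, at 3.59, and Nnat, which encodes neuronatin, at 3.43. Gnas, the gene of a G protein subunit, had 1.24, the growth inhibitor gene Grb10 had 2.21 and Plagl1, a zinc finger gene, had 2.02. Mest and Peg10, paternally expressed and needed for placenta and growth, had 1.39 and 1.28. The genes elsewhere thus ran from -3.48 to 3.59, in a genome whose bins ran from -5.21 to 4.93. Of the 28, 19 were at RT 1 or higher, against 13856 of 21679 protein-coding genes.

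**Figure D5:**
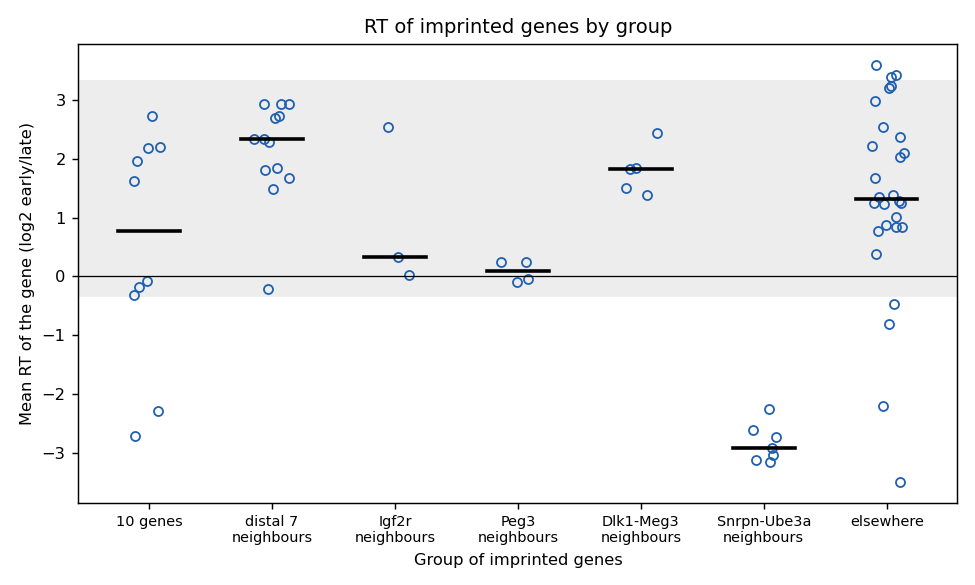
Mean RT (log2 early over late) of the 10 genes, their cluster neighbors and imprinted genes elsewhere. Circles are genes with a small random sideways shift, black lines the medians of the groups (0.77 for the 10 genes and 1.31 elsewhere), and the shaded band the middle 50% of protein-coding genes. The neighbors of Snrpn and Ube3a lie below -2, and those of Peg3 lie close to 0.

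The expressed allele was taken from the gene lists and was not measured in these cells. Ube3a is labeled maternal there, although it is expressed from both chromosomes in most cells other than neurons. Slc22a2 and Slc22a3, imprinted in the placenta, are labeled maternal too. Of the 10 genes and their neighbors, 15 of 18 labeled maternal had RT above 0, with a median of 1.93. Of those labeled paternal 6 of 17 did, with a median of -0.19. Over all protein-coding genes the share was 72.5% and the median 2.23. The expressed alleles are spread unevenly over the clusters. All 7 paternally expressed genes at or below -1 are from the Snrpn and Ube3a cluster, and many genes share bins, so these counts are not independent. The 6 pairs of neighboring or overlapping genes labeled with opposite parental alleles differed by amounts from 0.04 (Zim1 minus Peg3) to 0.93 (Airn above Igf2r). H19 and Igf2, Meg3 and Dlk1, and Zim1 and Peg3 differed by no more than 2 noise SDs, while Ube3a and Snrpn, Kcnq1 and Kcnq1ot1, and Igf2r and Airn differed by more. Both bins of Kcnq1ot1 are also bins of Kcnq1, so that difference sets a gene against a part of itself. Igf2r and Airn share 2 bins and lie on a slope. The sign was not the same in all pairs, since the gene labeled maternal had the higher RT in 3 of the 6.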

How the data were processed

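Population-based Repli-seq data of diploid F121-9 mESCs were used as deposited: 1 log2 value of early over late reads per 50 kb bin, made by the authors from RPM of each fraction, with 2 libraries per fraction combined. The submitters' processing notes name Bowtie2, SAMtools, bedtools and mm10. How replicates were combined, and whether bins were filtered or smoothed, is not given in the sources used here.

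The value of a gene was the mean RT of the bins its GENCODE vM21 body overlaps. RT above 0 was called early. Noise was taken from deviations of bins from their neighbors in segments with a slope of at most 2.5 log2 per Mb over at least 10 bins. Peaks and dips needed a prominence of 0.5. GC and repeat content were counted in the reference sequence. On a simulated profile with a noise SD of 0.15, 0.1496 was recovered, with all 374 crossings within 1 bin and 382 of 387 plateaus. The simulated plateaus lay at exactly RT 0 with independent noise, so their recovery was nearly given by the setting. It checks the code and says nothing about the noise or run lengths of the real profile. No test was made, since there are no values per replicate.

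Named genes were the 10 genes, both lists, and in each region the protein-coding genes with the highest and lowest RT and those nearest to crossings of RT 0. A gene that this rule names in the Igf2r region is not reported here. Other genes named at peaks were chosen after their values were seen. The members and lists were chosen with earlier results of these data known. Alternatives changed the bins used for a gene, the window, smoothing, the early cut and the regions included. Python 3.11.15, numpy 2.4.6, scipy 1.17.1, pandas 2.3.3 and matplotlib 3.10.9 were used.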

Additional observations from a re-analysis of the deposited data

How the results depend on the processing

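The number of early genes among the 10 was 5 with the bin of the 5′ end, with weights by overlap, after a running median over 5 bins and with early set at RT 1 or higher. It was 8 with the cut at the median RT of all bins, -0.98, and 3 of 6 without the distal chromosome 7 region. Of 21679 protein-coding genes, 13856 were at RT 1 or higher, and the number above -0.98 was not counted. The early share of the bins in the 5 regions was 59.4%, against 40.9% of all bins of the genome. With the cut at the median RT, which splits all bins evenly, it was 69.7%. With early set at RT 1 or higher it was 41.4%, where 16330 of all 51153 bins were early. Without the distal chromosome 7 region it was 51.9%. It was 60.0% with flanks of 500 kb and 53.2% with flanks of 2 Mb. The median percentile of the 10 genes among protein-coding genes, 34.6, became 65.9 when all bins were the reference, since genes are earlier than bins. Of 40 alternative values of single genes, 33 moved by less than the noise SD of 1 bin and 7 by more. H19, Igf2, Cdkn1c, Peg3 and Dlk1 lie in 1 bin each. Their values by the 5′ bin and by overlap could not move, yet they count among the 33. The largest move was 0.65, at Igf2r when its 5′ bin was used, and no gene changed sign. The counts of early neighbors (20 to 25) and early genes elsewhere (24 to 26) moved little. No paired analysis was possible because the deposited profile holds no value per replicate, and for the same reason no replicate was left out. Depth per bin is unknown.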
